A study of Mus musculus with 8 samples.

Results

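Of 51425 windows of 50 kb along the genome of mouse embryonic stem cells, 273, or 0.531%, scored earlier in both profiles taken after dTAG treatment than in both control profiles, by 0.5 score units or more. Joined over gaps of up to 100 kb, these windows formed 89 regions with a total length of 14 Mb, and the regions, their genes and their place on the timing profile are described here. A window entered when the mean of at least 5 of its 10 scored positions, spaced 5 kb apart, met this condition in the lower dTAG profile against the higher control profile. The windows were thus chosen by the scores of the same 4 profiles, so the size and direction of their difference are descriptions and carry no test. In the opposite direction 561 windows, or 1.09%, scored later by the same measure and formed 125 regions.

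The profiles came from Repli-seq, in which DNA labelled with BrdU for 2 h was recovered from 40000 cells sorted into early S phase and from as many in late S phase. The control group, for which the labels give no treatment of its own, and the dTAG group (collected 2 days after dTAG) each gave 2 profiles, here control 1, control 2, dTAG 1 and dTAG 2, and each profile joined 1 early and 1 late fraction of the 8 samples. dTAG is a small molecule that leads a tagged protein to the proteasome, and the series is titled for YY1; the labels name no tag, clone, sex or culture medium, and refer to an earlier publication for cells and treatment. Whether replicates came from separate cultures is not said, neither YY1 protein nor any transcript was measured, and the stem cell label could therefore not be set against marker genes. For dTAG 1 the titles and the fraction labels disagree on which sample was early, but that profile correlated positively with the others (r = 0.993 with control 1 over windows, as a description). No counts of reads come with the scores, and their sequencing depth is unknown. The first and second replicate numbers held mirrored distributions, with means of 0.20 and -0.20, and differences are therefore given within each number as well, as the dTAG profile minus the control of its own number. limma, without the replicate number in the model, called 0 of 51425 windows at an adjusted p of 0.05 (0.0%), with 500 at an unadjusted p under 0.05. The offset between the numbers then stays in the residual spread. With the number as a block limma also called 0, with 6224 at an unadjusted p under 0.05. It called 1462 when the variance was trended and robust as well.

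DNA replication follows a fixed order within S phase. Domains rich in active genes tend to replicate early, and gene-poor chromatin at the nuclear lamina tends to replicate late. On a timing profile, peaks mark places where forks start earlier than in the flanks, valleys mark places where forks from either side meet late, and slopes between them are timing transition regions. YY1 is a zinc finger protein that binds promoters and enhancers and can join them in loops, and its motif holds an ATGG core.

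Sequence was at hand for the promoters of genes that start inside the regions and for miRNAs, but not for the regions themselves. RefSeq (GRCm38.p6) gave 63 promoters of 60 protein-coding genes with a start site in an earlier region, each running from 250 bases before the start to 50 after it. They were searched on both strands for AANATGG, the core of the YY1 motif, and for the longer AANATGGCG, which contains it. A few are shown to set the CpG-rich starts beside those of receptor and repeated genes, with each match to AANATGG or its reverse complement in capitals.
Klf6 promoter, chr13:5861239-5861538, plus strand: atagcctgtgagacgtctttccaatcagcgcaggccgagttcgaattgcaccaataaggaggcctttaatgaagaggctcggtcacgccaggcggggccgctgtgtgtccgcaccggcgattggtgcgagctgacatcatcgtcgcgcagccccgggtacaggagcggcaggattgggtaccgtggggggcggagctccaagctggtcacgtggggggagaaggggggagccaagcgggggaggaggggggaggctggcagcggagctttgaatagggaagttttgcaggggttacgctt
Tafa5 promoter, chr15:87624980-87625279, plus strand: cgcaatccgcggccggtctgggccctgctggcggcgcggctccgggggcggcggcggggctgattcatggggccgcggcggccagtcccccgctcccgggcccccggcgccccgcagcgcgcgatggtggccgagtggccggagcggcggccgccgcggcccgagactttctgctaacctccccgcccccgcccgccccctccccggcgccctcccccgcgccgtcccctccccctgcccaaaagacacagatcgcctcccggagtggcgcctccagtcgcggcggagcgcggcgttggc
Il13ra2 promoter, chrX:147429143-147429442, minus strand: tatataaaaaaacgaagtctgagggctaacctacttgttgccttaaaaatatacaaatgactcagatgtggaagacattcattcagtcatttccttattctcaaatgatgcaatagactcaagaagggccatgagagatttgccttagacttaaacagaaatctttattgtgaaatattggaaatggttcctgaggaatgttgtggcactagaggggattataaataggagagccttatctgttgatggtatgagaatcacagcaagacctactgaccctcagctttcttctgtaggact
Olfr699 promoter, chr7:106790950-106791249, minus strand: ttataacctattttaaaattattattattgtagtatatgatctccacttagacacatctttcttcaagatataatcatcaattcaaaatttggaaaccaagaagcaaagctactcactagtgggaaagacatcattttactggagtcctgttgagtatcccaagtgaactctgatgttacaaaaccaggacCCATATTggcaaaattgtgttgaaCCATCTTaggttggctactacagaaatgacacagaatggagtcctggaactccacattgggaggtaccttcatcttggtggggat
Gm51595 promoter, chr8:55488223-55488522, plus strand: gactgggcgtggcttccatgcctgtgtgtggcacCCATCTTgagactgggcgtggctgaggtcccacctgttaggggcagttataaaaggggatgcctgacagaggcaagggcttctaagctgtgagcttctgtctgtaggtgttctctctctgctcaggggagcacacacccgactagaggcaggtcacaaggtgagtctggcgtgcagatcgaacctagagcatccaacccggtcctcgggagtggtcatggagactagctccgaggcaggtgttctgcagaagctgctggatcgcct
The Klf6 promoter had a GC content of 63% and that of Tafa5 81%, with observed over expected CpG ratios of 0.84 and 0.97, and neither held the core motif. The Il13ra2 promoter, at 37.7% GC, held none either. Over all 63 promoters the median GC content was 37.7%, against 56.7% for all 21045 promoters of protein-coding genes in the table and 48.3% for those in timing deciles 3 to 6. Without the olfactory and vomeronasal receptors, the median of the remaining 29 promoters was 47.7%, close to that of deciles 3 to 6. The core motif was in 23 of the 63 (36.5%), against 15.1% of all promoters and 15.6% of those in deciles 3 to 6. The longer form was in 0 of the 63, against 3.14% of all and 1.11% of those in deciles 3 to 6. Of the 23, 10 were the 10 predicted genes of 1 region on chromosome 8, where 6 promoters were copies with at least 90% identity in 15 pairs. Another 10 were among 34 promoters of olfactory and vomeronasal receptors, 8 of them among the 12 receptor promoters of 1 region on chromosome 7 against 1 of 14 on chromosome 2. The last 3, at Gm1966, Ube2dnl1 and Gm7429, were among 19 promoters of other genes. The letters say nothing of whether YY1 was bound.

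The widest separation between the groups lay at Htr2c, the gene for a serotonin receptor, on chromosome X. The region chrX:147000001-147450000 held 9 shifted windows and scored -1.56 and -2.11 in control 1 and 2, and -0.17 and -0.57 in dTAG 1 and 2. Both dTAG scores lay above both controls by 0.997 units on average over the windows, the highest gap of all 89 regions. The group means were -1.84 ± 0.39 (SD, n = 2) in the control and -0.37 ± 0.28 after dTAG. The highest 5 kb position lay at 147.26 Mb in control 1, 147.25 Mb in control 2, 147.225 Mb in dTAG 1 and 147.215 Mb in dTAG 2, so that the peak stood at nearly the same place in all profiles. The difference was at most 1.75 units at a single 5 kb position and fell to -0.05 and -0.33 at 500 kb beyond the left and right end of the region. Il13ra2, the gene for a decoy receptor of interleukin 13, lay whole inside the region, while Htr2c (chrX:146962464-147197277) started outside it.

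The same stretch of Htr2c held 6 of the 7 miRNA genes found in the earlier regions. Their mature forms are shown because they make up most of the small RNA content of the regions, 1 for each gene, with the seed (bases 2 to 8) in capitals.
mmu-miR-764-5p: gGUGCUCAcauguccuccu
mmu-miR-1912-3p: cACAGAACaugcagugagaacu
mmu-miR-1264-3p: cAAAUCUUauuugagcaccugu
mmu-miR-1298-5p: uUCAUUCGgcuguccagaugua
mmu-miR-1911-5p: uGAGUACAgccaugucuguuggg
mmu-miR-448-3p: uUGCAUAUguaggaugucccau
The 11 mature miRNAs of all earlier regions had 11 different seeds, so no seed family was shared between them. The seventh gene, Mir6393, lay in the region of Tafa5. Of all scored miRNA genes 0.57% had their midpoint in an earlier window, which is close to the 0.531% of all windows that were earlier.

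The longest region, with 13 windows, held Klf6, the gene for a zinc finger transcription factor of the Krüppel-like family, on chromosome 13. At chr13:5400001-6050000 control 1 scored -0.35 and control 2 -1.28, and dTAG 1 and 2 scored 0.88 and 0.44. The means moved from -0.81 ± 0.66 (SD, n = 2) to 0.66 ± 0.32, which took the region from the late to the early side of the scale. Klf6 itself (chr13:5861489-5870393) was the only protein-coding gene, among 7 lncRNA genes. The peak reached 0.47 and -0.36 in the controls and 1.66 and 1.12 after dTAG. On the right flank, 500 kb beyond the end, the dTAG mean was 0.80 units lower than the control (difference -0.80), and the nearest later region lay 500 kb away.

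Tafa5, which encodes a secreted chemokine-like protein of the nervous system, lay in the second longest region, chr15:87550001-88150000, with 12 windows. The scores were -1.77 and -1.28 in the controls and -0.50 and -0.45 after dTAG. Here the difference was larger in the first replicate number, at 1.27, than in the second, at 0.83. With all profiles brought to one distribution only 2 windows of this region passed the rule. Further along the chromosome, at chr15:91750001-92050000, the gene for the salivary mucin Smgc lay whole inside a region of 6 windows that also overlapped Lrrk2, the gene for a kinase mutated in inherited Parkinson disease. That region scored -2.43 and -3.84 in the controls and -1.02 and -1.73 after dTAG, and its difference of 1.76 was 1.05 without control 2 and 2.46 without control 1.

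**Figure D1:**
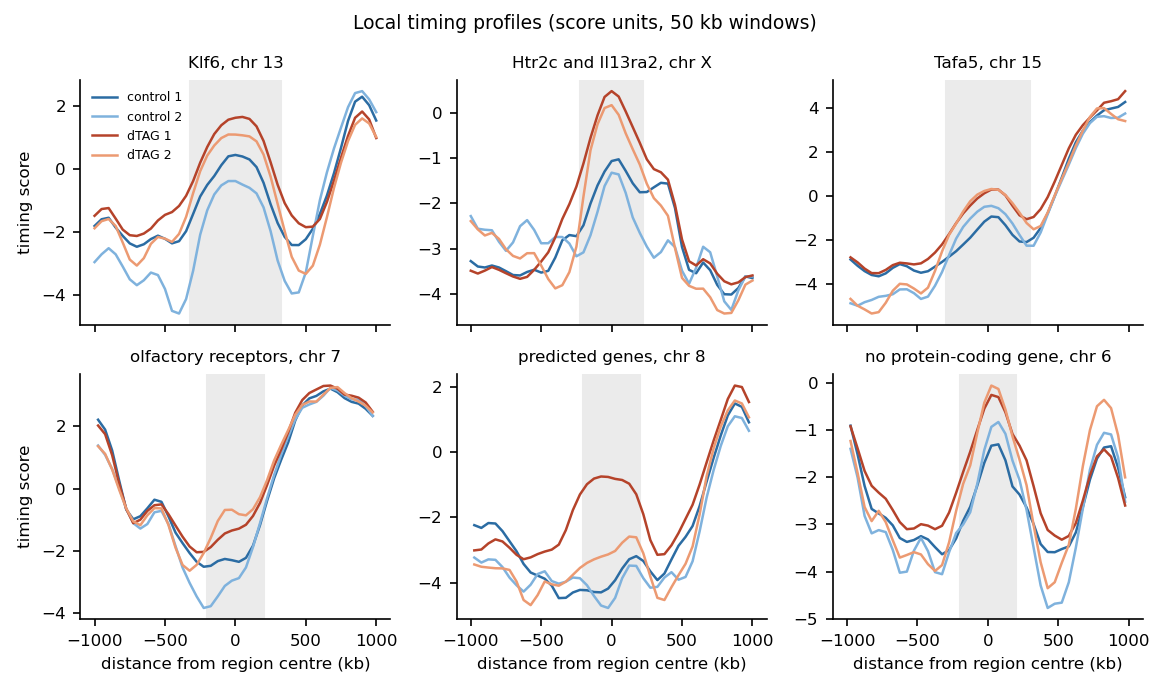
Timing score (score units, mean of 50 kb windows) against the distance from the region centre in kb for 6 earlier regions, with 1 line for each of the 4 profiles and the region shaded. At Klf6, Htr2c, Tafa5 and the stretch of chromosome 6 without a protein-coding gene the profiles peak inside the region and both dTAG lines run above both control lines, whereas at the predicted genes on chromosome 8 dTAG 1 stands apart from dTAG 2.

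A region of chromosome 8 with a cluster of predicted genes had the largest mean difference of the 89 regions, and there the replicates disagreed on its size. At chr8:55150001-55550000 the controls scored -3.87 and -4.16, deep in the late range, and dTAG 1 and 2 scored -0.91 and -3.01. The differences were 2.97 in the first replicate number and 1.15 in the second, the mean difference of 2.06 was 1.01 without dTAG 1 and 3.11 without dTAG 2, and the SD of the dTAG group was 1.48, the highest of the regions. Its 10 protein-coding genes, among them Gm51573, Gm51598 and Gm51591, are 1.53 to 2.43 kb long and all lie within chr8:55366305-55540304, and the largest difference at a 5 kb position, 2.57, was at 55.305 Mb, outside that cluster. At near-identical copies reads can be shared between members. The place was a valley by the control mean and a peak by the dTAG mean.

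Olfactory receptor clusters made up much of the gene content. These genes encode the odorant receptors of sensory neurons and sit in large, mostly late replicating arrays. Of 1109 scored receptor genes, 34 (3.07%) had their midpoint in an earlier window, against 65 of 21521 protein-coding genes (0.302%) in all. Receptors were thus 34 of those 65 genes. Another 19 of the 1109 receptors lay in later windows, beside 169 of all 21521 genes (0.785%). The median control score was -1.39 for receptors and 3.23 for all protein-coding genes. In timing deciles 4 and 5, around the receptor median, 1.79% and 1.75% of all windows were earlier. With 1 profile left out of the rule, the receptor share in earlier windows was 24.1% when control 1 was dropped and 4.69% for control 2. It was 7.84% for dTAG 1 and 10.3% for dTAG 2, and 0.902% at a gap of 0.75. The 34 came from 5 regions, which hold a few more receptors in unshifted windows between the members. Neighbours in an array share the same smoothed scores. The region chr7:106500001-106900000, with 14 receptor genes such as Olfr701, Olfr702 and Olfr695 and the predicted gene Gm1966, scored -2.12 and -2.71 in the controls and -1.26 and -0.83 after dTAG. The gap was wider in the second replicate number, at 1.89 against 0.86. A slope rose from there to an early domain, and at 500 kb beyond its right end the groups differed by 0.10. The region chr2:89350001-89750000, with 15 receptor genes led in length by Olfr1234, Olfr1241 and Olfr1246, scored -2.31 and -2.29 in the controls and -1.64 and -1.04 after dTAG. On one distribution 1 window of it still passed. Smaller groups lay on chromosomes 10 (Olfr774 to Olfr777) and 19 (Olfr1450 and Olfr1451), and Olfr564 lay alone on chromosome 7. Of the vomeronasal receptors, which detect pheromones, 3 of 350 (0.857%) were in earlier windows: Vmn2r3, Vmn2r4 and Vmn2r67.

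Few other gene groups were represented. Of 75 synaptic adhesion and cadherin genes, listed by symbol, 1 lay in an earlier window, the cadherin gene Cdh19. Its region, chr1:110700001-110950000, scored -1.17 and -1.49 in the controls and -0.41 and -0.08 after dTAG. No midpoint in an earlier window was found among 26 pluripotency genes, 31 imprinted genes, 12 genes of the 2-cell-like state, 39 Hox genes, 97 ribosomal protein genes, 397 zinc finger genes and 69 protocadherins. The same held for 375 solute carriers, 99 cytochromes P450, 94 potassium channels, 46 glutamate and GABA receptors, 70 defensins, 52 serpins, 27 Klr receptors, 53 trace amine and taste receptors, and 227 genes of 500 kb or longer. Against the background of 0.302%, a count of 0 in lists of these sizes says little. Of these lists, the imprinted, 500 kb and solute carrier lists each had 3 members in later windows, the zinc finger list 2 and the ribosomal list 1. Of all protein-coding genes 169 of 21521 (0.785%) were in later windows. Yy1 itself was no member: it scored 4.71 and 4.69 in the controls and 4.47 and 4.17 after dTAG.

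The remaining regions with protein-coding midpoints mostly held single genes, and those of Fmn2, Itprid1, Iapp and Fam111a were named after their values were seen, as were Smgc and Lrrk2 above and Myo9a, Nr2e3 and Slc38a9 below. Spopl, which encodes a subunit adaptor of a cullin ubiquitin ligase, lay whole in a slope region on chromosome 2 that scored -1.07 and -1.13 in the controls and -0.14 and -0.26 after dTAG. The actin nucleator gene Fmn2 had its midpoint in a region on chromosome 1 that moved from -0.94 and -1.18 to -0.29 and -0.22. Itprid1 on chromosome 6 lay in a region at -2.35 and -2.75 against -1.81 and -1.30. Early enough to lie above 0 in every profile were the window of Iapp, the gene for the islet hormone amylin (0.41 and 0.46 against 1.01 and 1.02), and the region of Fam111a, Gm4952 and Glyat on chromosome 19 (0.38 and 0.28 against 1.10 and 0.94). On chromosome X, Ube2dnl1, Ube2dnl2 and Gm7429, 3 short genes, lay in a region of 10 windows, chrX:114750001-115250000, which scored -1.16 in both controls and -0.07 and -0.30 after dTAG. Gm30534 on chromosome 10 lay between Arhgap18 and Lama2, both of which overlapped the region, and its region scored -1.23 and -2.46 against -0.30 and -0.51. The difference there, 1.44, was 0.83 without control 2.

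Most earlier regions lay outside protein-coding genes. Of 89 regions, 53 (59.6%) overlapped no protein-coding gene, 16 overlapped one without holding its midpoint, and 20 held at least 1 midpoint. Counting lncRNA, pseudogene and small RNA genes as well, 40 regions held no gene midpoint of any kind. The 53 lay at a median of 226 kb from the nearest protein-coding gene, and 15 of them lay more than 500 kb away. Among the longest of these, chr6:19650001-20050000 held 1 pseudogene and was 770 kb from the nearest protein-coding gene, Ankrd7. It scored -2.04 and -1.82 in the controls and -0.93 and -0.96 after dTAG, with a peak near 19.9 Mb in all profiles. Another at chr3:5900001-6250000, 321 kb from the peroxisome gene Pex2, scored -2.07 and -2.21 against -1.32 and -1.06. A valley at chr7:128950001-129200000, 56.4 kb from Plpp4, scored -0.15 and -0.48 in the controls and 0.85 and 0.59 after dTAG. At chr6:14400001-14550000, 164 kb from the glycogen phosphatase subunit gene Ppp1r3a, the scores were -1.80 and -1.77 against -0.90 and -1.04, and no window passed the rule on one distribution. Counted by window, 29.3% of the earlier windows overlapped a protein-coding gene, against 57.3% of all windows and 68.4% of the later windows. Windows of the same timing deciles overlapped one in 47.0% of cases, and those of the later windows' deciles in 49.1%. The share in earlier windows was 38.7% with all profiles on one distribution and 53.7% without dTAG 2. Midpoints of protein-coding genes were nearly as dense as at the same deciles, at 4.76 per Mb against 5.01, but lay in fewer windows, 13.9% against 19.9%. Of the noncoding classes, 29 of 12609 lncRNA genes (0.23%) and 61 of 9761 pseudogenes (0.625%) had their midpoint in an earlier window, beside 0.531% of all windows and 0.302% of protein-coding genes. No region lay within 100 kb of a position without a score, but only 0.179% of all windows did, so this says little.

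**Figure D2:**
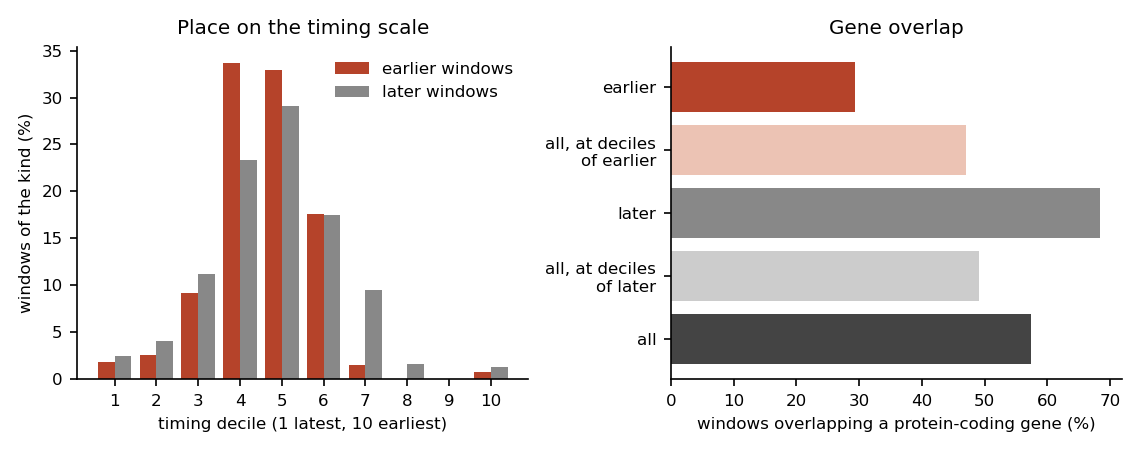
Left, the share of earlier and of later windows (%) in each decile of the mean timing score, from the latest to the earliest. Right, the share of windows (%) that overlap a protein-coding gene, which is 29.3% for earlier windows and 68.4% for later windows, beside all windows and all windows weighted to the same deciles.

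The earlier windows came from the late middle of the timing scale. Deciles 4 and 5 of the mean over all profiles, from -2.55 to -0.02 score units, held 92 and 90 of the 273 windows, and decile 6 held 48. The latest 2 deciles together held few, 5 and 7, and the earliest 4 held 4, 0, 0 and 2. Later windows were also most frequent in deciles 4 to 6, with 131, 163 and 98 of 561. They reached further up, with 53 in decile 7 and 9 in decile 8. The control mean was below 0 in 80 of the 89 regions, and in 18 of these the dTAG mean was above 0. Both controls were late and both dTAG profiles early in 38 windows. Also early was a region of 7 windows, chr9:3900001-4250000. With all profiles on one distribution it scored 0.88 and 1.17 in the controls and 1.52 and 2.00 after dTAG. With profiles centred on chromosome means, 0 of its windows passed the rule. The exceptions in the earliest decile were single windows. One on chromosome 9, which takes in one end each of Myo9a and Nr2e3, scored 3.67 in both controls and 4.35 and 4.22 after dTAG, and one that overlaps an end of the amino acid transporter gene Slc38a9 on chromosome 13 scored 4.38 and 4.06 against 4.93 and 5.05.

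**Figure D3:**
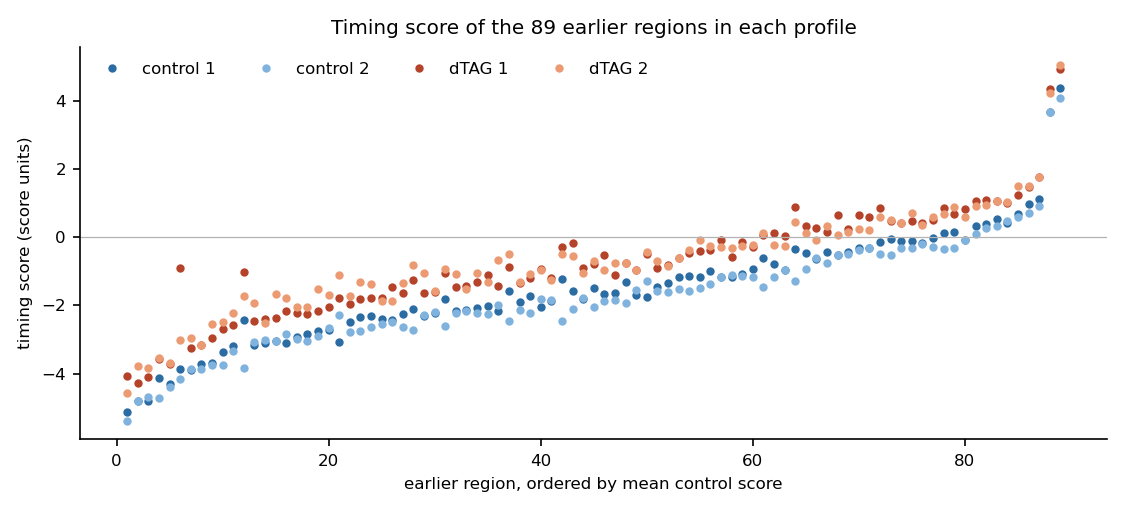
Timing score (score units) of each of the 89 earlier regions in the 4 profiles, with regions ordered along the horizontal axis by their mean control score and 1 point per profile. Both dTAG points lie above both control points in every region, as the rule requires, and 80 regions have a control mean below 0.

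By size, 30 regions were single windows, 21 had 2 windows, 25 had 3 to 5 and 13 had 6 or more. The median region spanned 100 kb and the longest 650 kb. Region means were -1.53 in control 1, -1.74 in control 2, -0.76 in dTAG 1 and -0.73 in dTAG 2. The mean difference was 0.77 in the first replicate number (range 0.50 to 2.97) and 1.01 in the second (0.51 to 2.11). In 64 of the 89 regions the second was the larger. Later windows likewise had the larger mean difference in the second number, at -1.37 against -0.98. Across all windows, control and dTAG correlated at 0.985 in the second number and at 0.993 in the first. The cause of the larger differences in the second number was not tested. Over all windows, 50.3% had the higher difference in the second. Both differences reached 1 unit in 5 regions. Leaving out 1 profile moved the difference by over 1.5 times in 9 regions. These are the regions of Vmn2r3, Lrrk2, Gm30534 and the predicted genes on chromosome 8, and another 5 on chromosomes 2, 4, 8, 10 and 13. At the edge of the rule, the 3 windows just inside had gaps of 0.501, 0.501 and 0.503, on chromosomes 1, 10 and 4, and the 3 just outside had 0.49999, 0.4998 and 0.4994, on chromosomes 9, 6 and 1. A further 221 windows had gaps from 0.4 to just under 0.5, against 119 from 0.5 to just under 0.6 and 11 of 1 or more, so the members are the upper end of a continuous range.

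**Figure D4:**
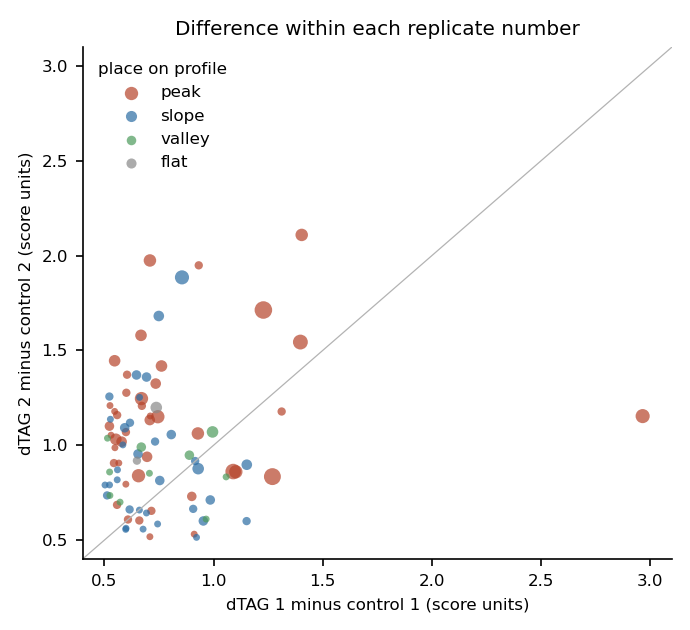
Difference in score units within the second replicate number against that within the first for the 89 earlier regions, coloured by place on the profile, with larger points for regions of more windows and a line where both are equal. The point far to the right is the chromosome 8 region, at 2.97 and 1.15. Above the line lie 64 regions, in which the difference was larger in the second replicate number.

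On the profile averaged over all 4 columns, 43 of the 89 regions lay at a peak, 34 on a slope, 10 in a valley and 2 on flat ground. A region was placed at a peak or valley when its centre was within 150 kb of a local maximum or minimum with a prominence of 0.5 units, and on a slope when it was not and the profile changed by 0.5 units or more over 500 kb. Peaks took 48.3% of the regions, against 29.1% of all windows, 25.5% of the windows in deciles 3 to 6 and 41.6% of the 125 later regions. Valleys took 11.2% against 27.5% of all windows, and slopes 38.2% against 39.1%. Among the 38 regions of 3 or more windows, 57.9% were at peaks. By the control mean alone 36 regions were at peaks, and by the dTAG mean alone 45. Of the 10 that were at a peak after dTAG and not in the control, 5 had been on a slope, 3 on flat ground and 2 in a valley, and 1 region went from a peak to a slope. These places share scores with the rule, so the shift between control and dTAG is not a separate observation.

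At peaks the difference was greatest at the centre and small at 500 kb on either side. Averaged over the 43 regions, the centre scored -1.39 and -1.59 in the controls and -0.56 and -0.46 in dTAG 1 and 2. The difference was 0.98 at the centre, 0.58 and 0.52 at 250 kb to the left and right, 0.08 and 0.07 at 500 kb, and 0.01 and 0.03 at 1000 kb. At 500 kb to the right the replicate numbers differed in sign, with 0.19 in the first and -0.06 in the second. To the left they gave 0.09 and 0.07.

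On slopes the difference reached further to the early side than to the late side. With all 34 slopes turned to rise to the right, the mean scores at 250 kb on the late side were -2.64 and -3.54 in the controls and -2.38 and -3.21 after dTAG. At 250 kb on the early side they were 0.94 and 0.84 against 1.33 and 1.27. The difference was 0.83 at the centre, 0.30 at 250 kb towards the late side and 0.41 at 250 kb towards the early side. Divided by the local steepness, the differences correspond to a median displacement of 103 kb along the chromosome, from 48.5 to 396 kb. In the 10 valleys, 7 of them single windows, the mean rose from -2.32 to -1.52, with 0.74 in the first and 0.86 in the second replicate number.

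**Figure D5:**
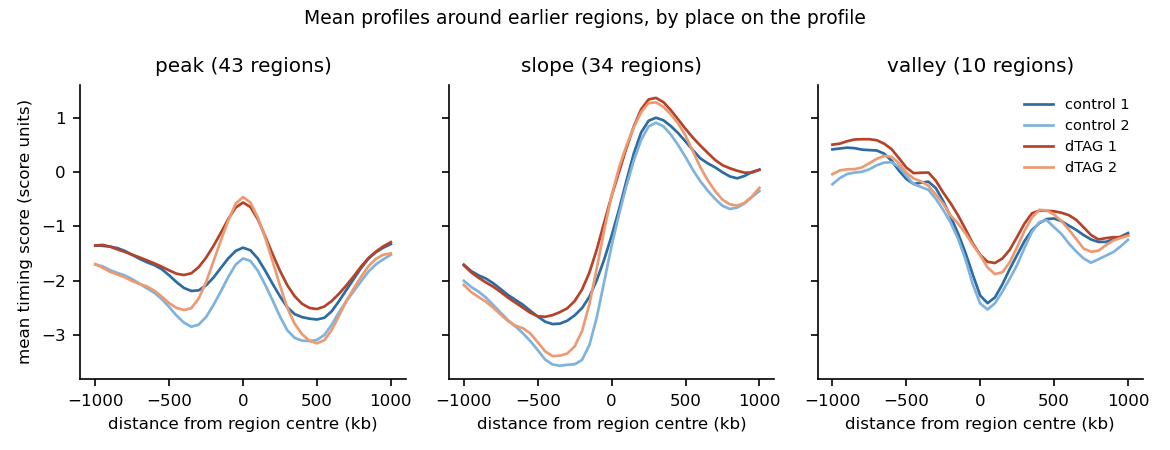
Mean timing score (score units) of each profile against the distance from the region centre in kb, for regions at peaks, on slopes (turned so that early lies to the right) and in valleys. At 1000 kb on either side the 2 profiles of each replicate number lie close together, and at the centre both dTAG lines run above both control lines, by 0.98 at peaks and 0.83 on slopes.

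Along the genome the regions were spread over 18 of the 20 chromosomes. Chromosome 6 (1.09% of its windows), chromosome X (1.01%), chromosome 15 (0.892%) and chromosome 13 (0.853%) had the highest shares. Later windows were as many or more there: 45 against 32 earlier on chromosome 6, 56 against 34 on X, 31 against 18 on 15 and 20 against 20 on 13. Chromosomes 16 and 17 had no earlier window, although 21 and 31 of their windows were later. On chromosome 12, 6 windows in 4 regions were earlier and 77 were later. The 34 windows of chromosome X formed 9 regions. The median distance to the nearest later region on the same chromosome was 8750 kb, and 11 earlier regions (12.4%) had one within 1000 kb, the closest at 200 kb. Within 5 Mb of the first or last scored window of a chromosome lay 4 and 1 regions.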

How the data were processed

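Repli-seq of 8 samples gave 4 profiles. The submitters' processing notes name the tools Bowtie2, SAMtools and bedtools with build mm10, without versions. The authors deposited a signed timing score every 5 kb, which per the file headers and name had gone through Loess smoothing and quantile normalization; formula, log base and direction are not stated, and high was read as early. Smoothing lets neighbouring windows share reads. The 4 positions with a value in only some profiles were left out.

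Positions were averaged in 50 kb windows, on 19 autosomes and chromosome X. The replicates were compared with limma 3.58.1 under R 4.3.3 (lmFit, eBayes, Benjamini-Hochberg over all windows). A check on simulated data used less spread than these profiles have, so it does not show the power of limma here. Local maxima and minima were found with scipy 1.17.1 under Python 3.11.15. Since nothing says that replicates were separate cultures, its p-values reflect the spread between these samples alone, which may be technical. Genes, promoters and miRNAs came from RefSeq on GRCm38.p6, the assembly behind mm10, and genes were placed by midpoint. Regions described singly were the 12 with the highest mean gap among those of 2 or more windows, the 8 longest, and any with a pluripotency, imprinted or 2-cell-like gene or a gene of 500 kb or longer (there were none), 14 in all, with their longest genes. The regions, lists and rules were chosen with earlier results of these data known. Alternatives were the threshold, window size, normalization, pairing, joining gap, definition of the place and each profile left out.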

Additional observations from a re-analysis of the deposited data

How the results depend on the processing

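Which windows count as earlier depended strongly on the settings. Within a replicate number, control and dTAG held nearly the same sorted scores, so bringing all profiles to one distribution remaps both alike. The mean difference over the 89 regions moved less, but it was taken over regions that these scores chose and is no check of them. That difference, 0.888 units, was between 0.783 (without control 2) and 0.993 (without control 1) with 1 profile left out, 0.887 on one distribution and 0.882 with profiles centred on chromosome means, and it was above 0 in all 89 regions in each case, since the regions were chosen for it. The 273 windows and 89 regions became 1262 and 371 at a gap of 0.25, 62 and 23 at 0.75, and 11 and 5 at 1. Windows of 25 and 100 kb gave 562 and 135. On one distribution 424 windows passed, of which 129 were among the 273, and with centring 416, of which 150 were. Under both of these, 41 of the 89 regions and 13 of the 14 described singly still held a passing window. Without 1 of the profiles the rule compares 3, and counts ran from 617 to 4999 windows and 200 to 1049 regions. The labels do not say that a replicate number marks a shared culture or day. Deviations from the group means correlated at 0.765 between same-numbered profiles over windows, and with the replicate block, as differences of 0.5 or more within both numbers, 1144 windows and 292 regions passed, all 273 among them. limma with the replicate block called 0 windows, 6224 at an unadjusted p under 0.05, and 1462 with the block and a trended and robust variance, of which 466 were earlier. Leaving out 1 profile it called 0 to 4. The share of regions on slopes was 53.9% with extrema counted within 100 kb and 15.7% within 250 kb, where all windows gave 49.4% and 21.5%; peaks took 36.0% and 62.9%, against 22.3% and 39.1%. Over the settings of the window count, gene overlap ran from 23.7% (25 kb windows) to 53.7% (without dTAG 2). Olfactory receptors in earlier windows ran from 0.361% (gap of 1, with 11 windows) to 24.1% (without control 1, with 4999 windows). The cause was not tested. Reading a position as the start of its 5 kb, a setting chosen after seeing the data like the 2 shares just given and that at peaks, gave 281 windows.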
